A study of Rattus norvegicus with 15 samples.

Results

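Immediate early genes of the rat colon were followed across genotype, antibiotic treatment and age. The 7 genes were taken from a list of gene identifiers, each with the chromosome it had to lie on. That rule uses no measured value, but the list was drawn up with earlier results of these data known. All 7 of 7 were found in every count table on the stated chromosome, among 32883 genes in all. They are Fos (ENSRNOG00000008015, chr6:109300433-109303299, plus strand), Fosb (ENSRNOG00000046667, chr1:80214494-80221710, minus strand), Jun (ENSRNOG00000026293, chr5:114011189-114014277, minus strand), Junb (ENSRNOG00000042838, chr19:26092974-26094756, minus strand), Egr1 (ENSRNOG00000019422, chr18:27657628-27661429, plus strand), Atf3 (ENSRNOG00000003745, chr13:109817728-109849632, minus strand) and Dusp1 (ENSRNOG00000003977, chr10:16970626-16973418, plus strand). Positions are those of the authors' tables, on the Rnor6 annotation. Jun and Junb have 1 exon each in these tables, Egr1 has 2, and the other genes have 4. None of the 7 overlaps another annotated gene on either strand, so their reads were not split with an overlapping gene.

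RNA was measured in 15 libraries of the colon mucosa and submucosa, which the study calls the MS tissue layer and the labels call colon epithelial. There were 3 libraries in each of 5 groups. WT-C and WT-Ab were wild-type rats at 3 M of age without and with antibiotics, TG-C and TG-Ab were homozygous transgenic rats at 3 M without and with antibiotics, and the last group was untreated WT rats at >12 M. For this last group the study's >12 M is used, as the age label and the titles do not give the same number of months. All rats were of the outbred Sprague Dawley background, and WT rats were littermates of TG rats. Antibiotics (vancomycin, neomycin, streptomycin, ampicillin, cefuroxime and amoxicillin with clavulanic acid) were given for 2 weeks from 2.5 M in sweetened drinking water, and whether WT-C and TG-C rats also drank sucrose is not given in the sources used here. TG rats at >12 M were not analysed here. Nothing in the labels says that the 3 libraries of a group came from separate rats, so p-values measure the spread between libraries, which may be technical. Libraries are named below by group and number, as WT-Ab 1.

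Immediate early genes are transcribed within minutes of a stimulus, from factors that are already present in the cell and without new protein synthesis. Fos and Fosb encode partners of the Jun proteins in the transcription factor AP-1, and Jun and Junb encode those partners. Egr1 encodes a zinc finger transcription factor, and Atf3 a stress-induced factor of the ATF/CREB family. Dusp1 encodes a phosphatase that switches off MAP kinases and so acts as a brake on the signals that induce the other genes. In the gut these genes answer to growth factors, cytokines, bacterial products and injury, and also to handling of the tissue. The time from death to preservation of the tissue is not given in the sources used here, and its part in the values was not tested.

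The cAMP response element (CRE), bound by CREB and ATF factors, and the CArG box, bound by serum response factor, are known entry points of these signals. RefSeq promoter sequence on GRCr8 was matched by symbol for 4 of the 7 genes (Fosb, Junb, Egr1 and Dusp1). The windows searched ran from 250 bases before the start site to 50 after it, on both strands. The promoters of Dusp1 and Junb are shown because these are the 2 genes that passed the test in a comparison below; the 250 bases before the start site are printed 5′ to 3′, from chr10:17184603-17184852 and chr19:40080876-40081125 on the plus strand of GRCr8. Capitals mark the full CRE, TGACGTCA, and its shorter core, TGACG.
Dusp1: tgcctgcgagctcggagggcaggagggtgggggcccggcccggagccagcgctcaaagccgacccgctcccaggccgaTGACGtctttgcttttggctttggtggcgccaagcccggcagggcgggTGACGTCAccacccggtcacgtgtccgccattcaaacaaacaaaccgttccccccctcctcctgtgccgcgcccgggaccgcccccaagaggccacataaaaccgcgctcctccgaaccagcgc
Junb: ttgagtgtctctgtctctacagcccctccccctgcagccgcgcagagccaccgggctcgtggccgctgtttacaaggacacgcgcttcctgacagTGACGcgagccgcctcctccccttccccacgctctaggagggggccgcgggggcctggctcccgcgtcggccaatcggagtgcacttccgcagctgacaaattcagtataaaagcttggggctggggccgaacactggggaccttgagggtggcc

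The Dusp1 window held 1 full CRE, 124 to 117 bases before the start site, and 1 further TGACG, 172 to 168 bases before it. A full CRE contains TGACG on both strands. The Junb window held 1 TGACG, 155 to 151 bases before the start site, and no full CRE. Of 33469 promoter windows of the same length, 1.83% held TGACGTCA and 21.2% held TGACG. Egr1 had 2 CArG boxes, 105 to 96 and 83 to 74 bases before its start site, an element found in 1.64% of windows, and 2 matches of TGACG. Fosb had no match of these motifs, and none of the 4 windows held the AP-1 site TGACTCA, found in 4.63% of all windows. A match is a string of letters and not a bound site.

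The libraries held 15606835 to 28685094 counts. Values are in CPM, the count of a gene per 1000000 counts of its library, and the 7 genes together took 0.0286% to 0.0534% of a library's counts. Across the 12 libraries at 3 M, 3 stood apart on the first principal component, which held 60.8% of the variance: WT-Ab 1, TG-C 1 and TG-Ab 1, at 98.3, 92.3 and 66.8, against -58.3 to 0.0202 in the other 9. The same 3 had 6.05% to 9.35% of their counts on mitochondrial genes, against 11.04% to 13.7% in the other 9. They spread over 3 groups, and values without them stand beside the results they moved. Neither the transgene nor cell type markers could be read here, since no table used here gives symbols for identifiers other than those of the 7 genes. In bulk tissue, fewer cells of a type and less RNA per cell cannot be told apart.

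Level and variation differed widely among the 7 genes. Relative to exon length, Junb had the highest mean at 3 M, 62.8 CPM per kb of exon, followed by Jun (39.3), Fos (36.6), Dusp1 (24.1), Egr1 (6.92), Atf3 (4.83) and Fosb (0.907). The order per kb holds only if reads cover whole transcripts. The ranges over the 12 libraries of Jun (20.8 to 65.6 CPM per kb) and Fos (11.7 to 60.6) overlapped almost fully, so these neighbours were not separated. Those of Junb (48.4 to 89.3) and Dusp1 (12.0 to 45.3) overlapped both. Egr1 (2.93 to 12.2) and Atf3 (2.35 to 10.7) overlapped each other. In CPM, without exon length, the median at 3 M was 110.7 for Jun and 108.6 for Junb. Fosb was counted 27 to 129 times per library and Junb 1523 to 5855 times.

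**Figure D1:**
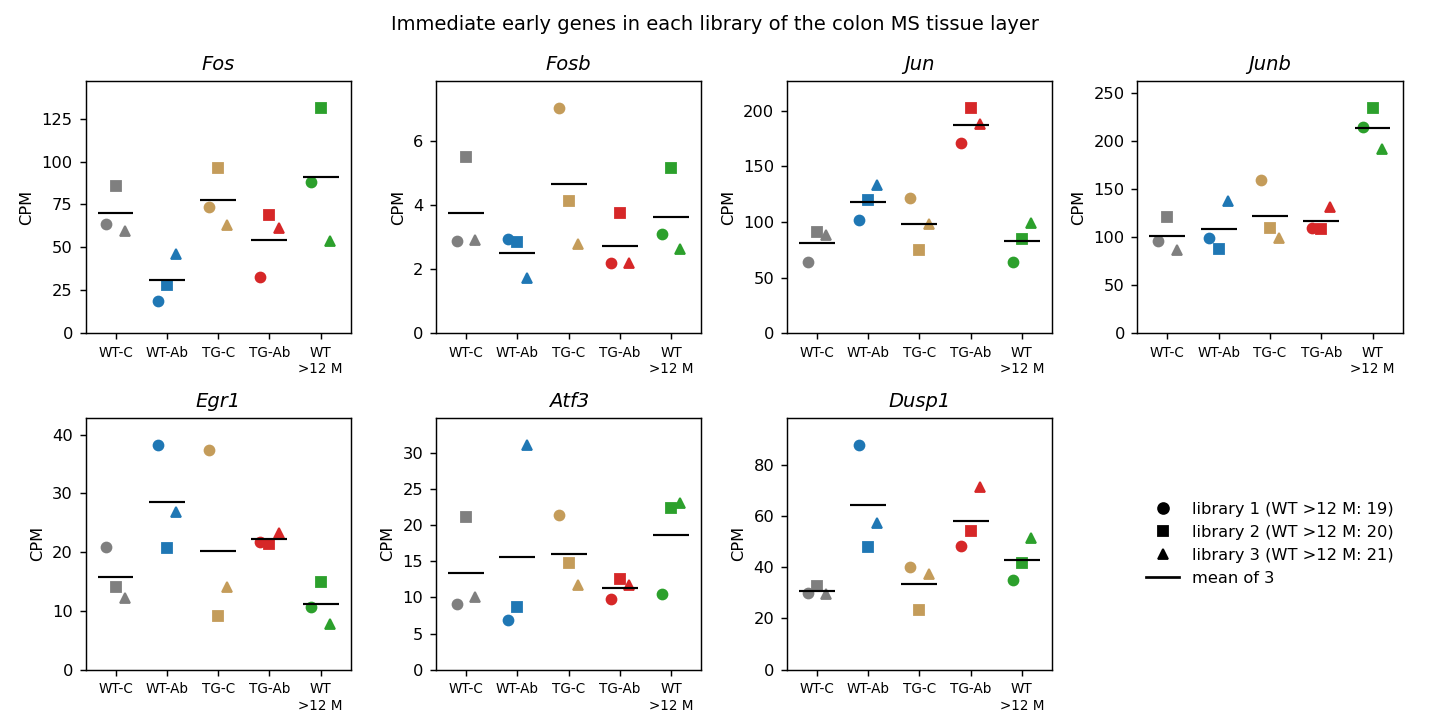
CPM of each of the 7 genes (vertical axis, from 0, 1 panel a gene) in the 3 libraries of each of 5 groups (points, with the symbol giving the library number) and their mean (line). Dusp1 lay at 47.9 CPM or more in every library with antibiotics and at 40.0 or less in every control at 3 M, and Junb lay at 192 CPM or more at >12 M.

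Within a group the libraries were not ordered alike for all genes, but in both control groups 1 library was highest for most of the 7. WT-C 2 was the highest WT-C library for 6 of 7 genes (all but Egr1), although for Jun only by 90.6 against 88.7 CPM. TG-C 1, which stood apart over all genes, was the highest TG-C library for 6 of 7 (all but Fos). TG-Ab 1, which also stood apart, was highest for 0 genes and lowest for 4. The share of all genes for which these libraries were highest or lowest was not determined. The counts can therefore not be called particular to the 7. Atf3 varied most inside groups, with a pooled SD of 0.71 on the log2 CPM scale, followed by Egr1 (0.60), Fosb (0.51) and Fos (0.48). Over 12457 genes the median SD was 0.31, and 86.0% of genes varied less than Atf3. Dusp1 (0.34), Junb (0.29) and Jun (0.25) lay nearer to that median. Without the 3 libraries the SD of Egr1 was 0.34 and that of Atf3 0.73, against a median over genes of 0.19. Jun (0.22), Dusp1 (0.27) and Junb (0.28) then lay above that median too, with 58.9%, 67.4% and 68.5% of genes varying less.

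The comparison of TG-C with WT-C asks whether the transgene alone goes with other levels at 3 M. None of the 7 genes passed the test, and none separated the groups. Fos stood at 63.9, 85.7 and 59.6 CPM in WT-C 1, 2 and 3 and at 73.6, 96.4 and 63.0 in TG-C. Jun stood at 64.1, 90.6 and 88.7 CPM in WT-C and at 122, 75.1 and 97.9 in TG-C. For both genes the groups overlapped, and the highest value of Jun came from TG-C 1. Egr1 showed the widest gap inside a group, with 37.5 CPM in TG-C 1 against 9.17 and 14.0 in TG-C 2 and 3, and 20.9, 14.1 and 12.1 in WT-C. All 7 log2 fold changes were positive, from 0.14 (Dusp1) to 0.33 (Egr1), with a median of 0.27 against 0.06 over all 12038 genes tested. Adjusted p in edgeR's quasi-likelihood test ran from 0.910 to 0.932, and 0 of 7 genes had an unadjusted p under 0.05, against 2.63% of all genes. edgeR called 0% of all genes at an adjusted p under 0.05, and DESeq2 called 0 of the 7 and 0.112% of all genes. CPM of the 2 groups did not overlap for 0 of 7 genes and for 8.67% of all genes. The 95% intervals still held changes of size: from -0.37 to 0.68 for Fos, from -0.24 to 0.79 for Jun and from -0.89 to 1.56 for Egr1. Without TG-C 1 the median of the 7 was 0.046, against 0.012 over all genes: Egr1 (-0.38) and Fosb (-0.078) were negative, and Junb (0.087), Dusp1 (0.046), Atf3 (0.026), Jun (0.15) and Fos (0.23) positive.

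The effect of antibiotics was the main contrast at 3 M, with 6 libraries against 6 when both genotypes enter 1 fit that also holds a genotype term. Dusp1, the MAP kinase phosphatase, rose with antibiotics. Jun had a higher mean and Fos and Fosb a lower mean with antibiotics, and these missed the adjusted threshold. Junb and Atf3 differed little against their spread. The 7 genes thus did not move as a block: 3 fold changes were positive and 4 negative. Without the 3 libraries that stood apart, Junb (0.066) and Atf3 (0.14) were positive as well, and Fos and Fosb stayed negative.

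Dusp1 had its lowest, median and highest values at 23.3, 31.2 and 40.0 CPM in the 6 control libraries and at 47.9, 55.6 and 87.7 CPM in the 6 libraries with antibiotics. The groups did not overlap, and the highest value was that of WT-Ab 1, a library that stood apart. Such a gap toward higher values with antibiotics was seen for 3.03% of all 12457 genes. The mean was 61.1 ± 15.6 CPM (SD, n = 6) with antibiotics and 32.1 ± 6.02 (SD, n = 6) without. The log2 fold change was 0.80 (SE 0.175), and the adjusted p of the quasi-likelihood test was 0.0401, so 1 of the 7 genes was called, against 2.79% of all genes called and 1.06% called higher. With the replicate number as a block the log2 fold change was 0.79 (adjusted p = 0.0248). This block also sets WT-C 1, 2 and 3 beside the same numbers of the other groups, a pairing that the libraries of WT-C did not show, and with it 6.58% of all genes were called. Without the 3 libraries that stood apart the log2 fold change of Dusp1 was 0.79 (adjusted p = 0.0221), with 11.2% of all genes called. The call was lost when WT-C 1, 2 or 3, WT-Ab 1, 2 or 3, TG-C 2, or TG-Ab 2 or 3 was left out, with adjusted p up to 0.0995, while the log2 fold change stayed between 0.67 and 0.88. Over all genes the share called in those settings was also lower, at 0.715% to 2.42%.

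Jun had its lowest, median and highest values at 64.1, 89.7 and 122 CPM in controls and at 101, 152 and 203 CPM with antibiotics. The groups overlapped through TG-C 1, the highest control, and WT-Ab 1 and 2, the lowest libraries with antibiotics. The means were 152.9 ± 40.6 CPM (SD, n = 6) with antibiotics and 89.7 ± 19.9 (SD, n = 6) without. The log2 fold change was 0.62 (SE 0.153), with an adjusted p of 0.0568, just above the threshold of 0.05. It was called with the replicate block (0.61, adjusted p = 0.0396), which has the same limit for WT-C, and without the 3 libraries (0.77, adjusted p = 0.0169).

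Fos, the partner of Jun, lay the other way. Its lowest, median and highest values were 59.6, 68.7 and 96.4 CPM in controls and 18.6, 39.6 and 68.8 CPM with antibiotics. The overlap came from TG-Ab 2 and 3, at 68.8 and 61.4 CPM, while all 3 WT-Ab libraries lay below every control. The means were 42.7 ± 19.6 CPM (SD, n = 6) with antibiotics and 73.7 ± 14.6 (SD, n = 6) without, and the log2 fold change was -0.95 (SE 0.281, adjusted p = 0.0920). With the replicate block it was -1.02 (adjusted p = 0.0360), and without the 3 libraries -0.73 (adjusted p = 0.0507). Fosb, the other Fos family gene, had values of 2.77, 3.50 and 7.01 CPM in controls and 1.73, 2.51 and 3.74 CPM with antibiotics, again lowest, median and highest. Those ranges overlapped, and the log2 fold change was -0.80 (SE 0.276, adjusted p = 0.140), or -0.60 (adjusted p = 0.233) without the 3 libraries.

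The other 3 genes did not pass in this contrast. Egr1 had a mean of 25.4 ± 6.68 CPM (SD, n = 6) with antibiotics and 17.96 ± 10.3 (SD, n = 6) without, with a log2 fold change of 0.39 (adjusted p = 0.505). That control mean rested on TG-C 1, and without this library the log2 fold change of Egr1 was 0.71 (adjusted p = 0.0412), with 14.9% of all genes called. Atf3 had 13.4 ± 8.89 and 14.7 ± 5.45 CPM, and Junb 112.2 ± 18.8 and 111.7 ± 26.1 CPM, with and without antibiotics (SD, n = 6 each). Their log2 fold changes were -0.24 (adjusted p = 0.751) and -0.10 (adjusted p = 0.726). At an unadjusted p under 0.05 stood 4 of the 7 genes (Dusp1, Jun, Fos and Fosb), where 20.5% of all genes did. The median log2 fold change of the 7 was -0.10, against 0.03 over all genes. Without the 3 libraries that stood apart it was 0.14, against 0.026 over all genes.

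In WT rats alone, with 3 libraries against 3, Fos and Dusp1 had the largest fold changes of the 7, in opposite directions, and neither was called. Dusp1 stood at 29.7, 32.7 and 29.4 CPM in WT-C 1, 2 and 3 and at 87.7, 47.9 and 57.3 in WT-Ab. Fos stood at 63.9, 85.7 and 59.6 CPM in WT-C and at 18.6, 28.3 and 46.3 in WT-Ab. Neither gene overlapped between the groups, and neither did Jun, at 64.1, 90.6 and 88.7 CPM in WT-C and 101, 119.9 and 133 in WT-Ab. Separation of this kind was common here: 31.2% of all 12193 genes did not overlap, 23.1% toward higher values with antibiotics and 8.11% toward lower. The log2 fold changes were 0.91 for Dusp1 (SE 0.209, adjusted p = 0.238), -1.29 for Fos (SE 0.378, adjusted p = 0.272) and 0.40 for Jun (adjusted p = 0.341). Egr1 had 0.70 (adjusted p = 0.303). Dusp1, Fos and Egr1, 3 of the 7 genes, had an unadjusted p under 0.05, against 16.3% of all genes. edgeR called 0 of the 7 and 0% of all genes. DESeq2 called 2 of the 7, Fos (adjusted p = 0.0312) and Dusp1 (adjusted p = 0.00960), and 5.09% of all genes. Without WT-Ab 1 the log2 fold changes were 0.68 for Dusp1 (adjusted p = 0.0549), -1.002 for Fos (adjusted p = 0.134) and 0.54 for Jun (adjusted p = 0.148), and that of Egr1 was 0.50 (adjusted p = 0.350).

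In TG rats Jun had the smallest p of the 7 and Fosb the largest fold change, and neither was called. Jun stood at 122, 75.1 and 97.9 CPM in TG-C 1, 2 and 3 and at 172, 203 and 189 in TG-Ab. Dusp1 stood at 40.0, 23.3 and 37.4 CPM in TG-C and at 48.1, 53.9 and 71.4 in TG-Ab. Both genes were higher in every TG-Ab library than in any TG-C library, as were 10.6% of all 12283 genes, and the other 5 overlapped. Fos stood at 73.6, 96.4 and 63.0 CPM in TG-C and at 32.8, 68.8 and 61.4 in TG-Ab, with only TG-Ab 1 well below the controls. Atf3 stood at 21.4, 14.7 and 11.7 CPM in TG-C and at 9.78, 12.5 and 11.7 in TG-Ab. The log2 fold changes were 0.82 for Jun (SE 0.187, adjusted p = 0.425), 0.67 for Dusp1 (adjusted p = 0.698), -0.60 for Atf3 (adjusted p = 0.698), -0.64 for Fos (adjusted p = 0.787) and -0.87 for Fosb (SE 0.454, adjusted p = 0.794). Jun, Dusp1 and Atf3, 3 of the 7 genes, had an unadjusted p under 0.05, against 7.13% of all genes. edgeR called 0 of the 7 and 0.00814% of all genes, and DESeq2 called 1 of the 7, Jun (adjusted p = 0.0216), and 1.69% of all genes. Without TG-C 1 and TG-Ab 1 the log2 fold changes were 1.02 for Jun (adjusted p = 0.143) and 0.89 for Dusp1 (adjusted p = 0.247), and that of Egr1 moved from 0.06 to 0.79 (adjusted p = 0.242). Atf3 then had -0.28 (adjusted p = 0.493), Fosb -0.37 (adjusted p = 0.683) and Fos -0.44 (adjusted p = 0.305). Jun, Egr1 and Dusp1 were then the 3 of 7 with an unadjusted p under 0.05, against 18.7% of all genes.

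**Figure D2:**
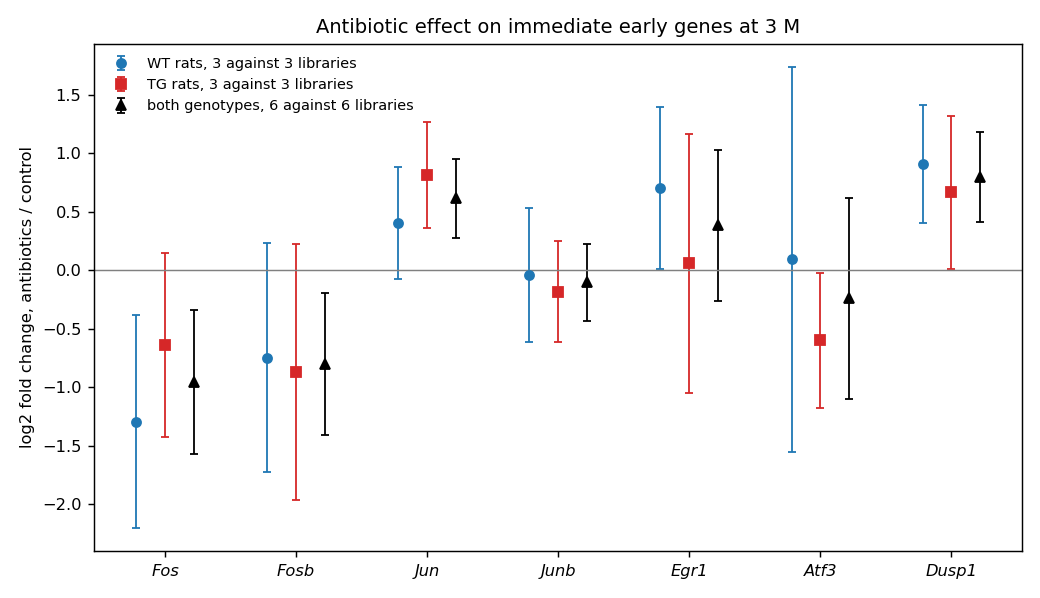
Log2 fold change of antibiotics against control for the 7 genes, with 95% intervals as bars, in WT rats (3 against 3 libraries), in TG rats (3 against 3) and over both genotypes (6 against 6). Dusp1 (0.80) and Jun (0.62) lay above 0 and Fos (-0.95) and Fosb (-0.80) below it over both genotypes, and the intervals of Junb, Egr1 and Atf3 crossed 0.

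Ratios of the raw counts of 2 genes inside 1 library do not depend on any scaling. They were chosen after the values had been seen and are given as a description, with no test. Jun counts per Fos count ran from 0.779 to 1.66 in the 6 control libraries, with a median of 1.27, and from 2.87 to 5.47 in the 6 libraries with antibiotics, with a median of 3.66. Dusp1 counts per Fos count ran from 0.242 to 0.593 in controls and from 0.785 to 4.73 with antibiotics. Neither ratio overlapped between the treatments, in either genotype. Jun and Dusp1 had higher means and Fos a lower mean with antibiotics, so a gap in these ratios partly repeats the values above. The share of other gene pairs with such a gap was not determined. The highest value of both ratios was that of WT-Ab 1. Egr1 per Fos (0.0952 to 0.509 in controls and 0.311 to 2.06 with antibiotics) and Jun per Junb (0.668 to 1.03 and 0.966 to 1.87) overlapped. Within genotypes, Egr1 per Fos did not overlap in WT rats, nor Jun per Junb in TG rats. Fosb counts in percent of Fos counts overlapped too, at 4.27 to 9.53 in controls and 3.53 to 15.8 with antibiotics. In WT rats at >12 M, Jun per Fos was 0.726, 0.647 and 1.84, and Dusp1 per Fos was 0.397, 0.316 and 0.953, in libraries 19, 20 and 21. The untreated library 21 thus exceeded every control at 3 M in both ratios, and lay within the range of the libraries with antibiotics for Dusp1 per Fos.

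**Figure D3:**
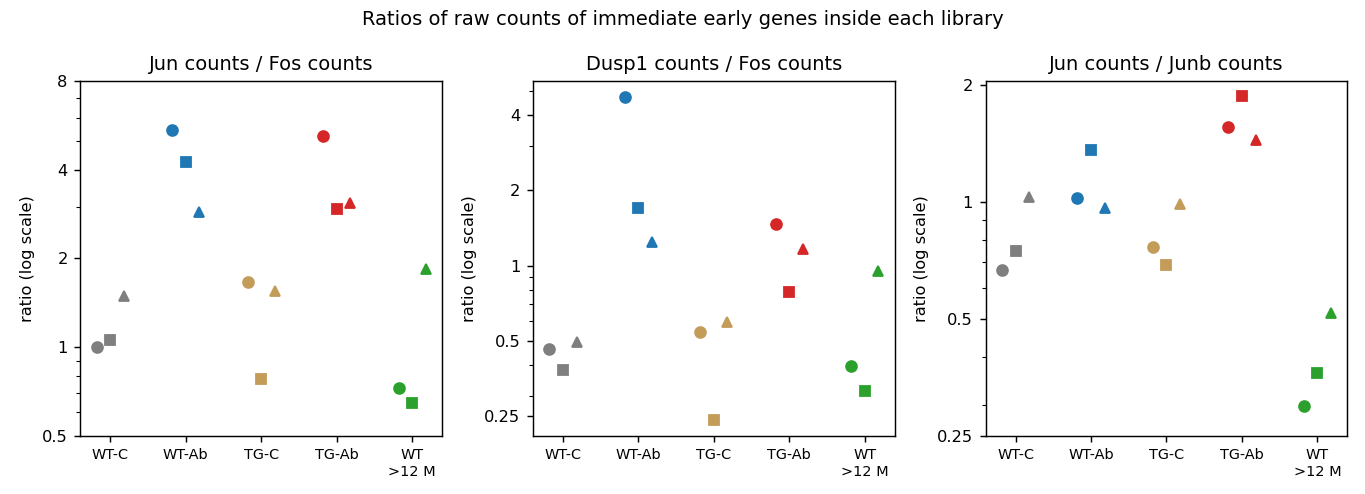
Ratio of raw counts of Jun to Fos, Dusp1 to Fos and Jun to Junb (vertical axes on a log scale) in each library (points, circle, square and triangle for libraries 1, 2 and 3, or 19, 20 and 21 at >12 M). The 6 control libraries lay at 1.66 or less and the 6 libraries with antibiotics at 2.87 or more for Jun to Fos, while Jun to Junb overlapped.

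Genotype among antibiotic-treated rats was compared in TG-Ab and WT-Ab. Jun was higher in every TG-Ab library (172, 203 and 189 CPM) than in any WT-Ab library (101, 119.9 and 133), as were 2.59% of all 12274 genes. Its log2 fold change was 0.66 (SE 0.174, adjusted p = 0.9998). No other of the genes separated TG-Ab from WT-Ab. Fos had a log2 fold change of 0.80 (95% interval -0.25 to 1.84, adjusted p = 0.9998), with 32.8, 68.8 and 61.4 CPM in TG-Ab against 18.6, 28.3 and 46.3 in WT-Ab. edgeR and DESeq2 each called 0 of the 6 genes tested, against 0.00815% and 0.133% of all genes. In edgeR 1 of them had an unadjusted p under 0.05, against 1.31% of all genes. Fosb, at no more than 3.74 CPM in these libraries, was under the filter of 4 CPM in at least 1 library. Without WT-Ab 1 and TG-Ab 1 the log2 fold change of Jun was 0.63 (adjusted p = 0.283) and that of Fos 0.80 (adjusted p = 0.371).

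Whether antibiotics acted differently in the 2 genotypes was tested by the interaction of genotype and antibiotics. No gene of the 7 passed, with adjusted p of 0.998 for each. The smallest p was that of Jun, whose antibiotic effect was 0.44 larger in TG rats on the log2 scale (95% interval -0.20 to 1.08). For Fos the difference was 0.69 (95% interval -0.50 to 1.89) and for Dusp1 -0.21 (95% interval -1.004 to 0.59). edgeR called 0 of the 7 and 0% of all 12457 genes, and 1.47% of all genes had an unadjusted p under 0.05. DESeq2 called 0 of the 7 and 0.0248% of all genes. The larger change of Fos in WT rats and of Jun in TG rats was thus not shown to differ between genotypes.

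Age was compared in WT rats at >12 M and WT-C rats at 3 M. Junb, a Jun protein known to restrain the activity of Jun, was higher at >12 M, and so was Dusp1, while the other 5 genes did not pass the test. Junb stood at 95.9, 121 and 86.3 CPM in WT-C 1, 2 and 3 and at 214, 234 and 192 CPM in libraries 19, 20 and 21 at >12 M. Dusp1 stood at 29.7, 32.7 and 29.4 CPM in WT-C and at 35.03, 41.4 and 51.4 at >12 M. Both separated the ages, although Dusp1 by little, and 22.2% of all 11498 genes were likewise higher at >12 M without overlap. The log2 fold change was 1.14 for Junb (SE 0.138, adjusted p = 0.00141) and 0.54 for Dusp1 (SE 0.155, adjusted p = 0.0318). These were 2 of 7 genes called, both higher, where 35.3% of all genes were called and 18.9% called higher, so the count of 2 was near the background. The call of Dusp1 was lost without library 20 at >12 M or without WT-C 1, 2 or 3, with adjusted p of 0.0591 to 0.100, and that of Junb held in each case. Over all genes the share called in those settings was also lower, at 21.9% to 27.5%.

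Fos and Atf3 had wide values at >12 M. Fos stood at 88.3, 131 and 54.0 CPM and Atf3 at 10.4, 22.3 and 23.03 CPM in libraries 19, 20 and 21, both overlapping WT-C. Their log2 fold changes were 0.44 (adjusted p = 0.298) and 0.53 (adjusted p = 0.361). That of Fos ran from 0.086 (without library 20) to 0.70 (without library 21), and that of Atf3 from 0.31 (without WT-C 1) to 1.02 (without WT-C 2), when 1 library was left out. Egr1 stood at 10.6, 15.0 and 7.81 CPM at >12 M, with a log2 fold change of -0.44 (adjusted p = 0.255), and Jun at 64.0, 84.9 and 99.2, with 0.09 (adjusted p = 0.760). Fosb had a log2 fold change of 0.01 (adjusted p = 0.990). The order of the libraries was not shared: library 20 was highest for Fos, Fosb, Junb and Egr1, and library 21 for Jun, Atf3 and Dusp1. The median log2 fold change of the 7 was 0.44, against -0.02 over all genes.

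The libraries at >12 M carry another sequencing project number in their labels than those at 3 M, and their read pairs with both ends aligned were counted where single reads were counted at 3 M. Mitochondrial genes took 7.27% ± 0.837 (SD, n = 3) of counts at >12 M and 12.7% ± 1.07 (SD, n = 3) in WT-C. Age cannot be told apart from these. The comparison also moved with exon length: of the 3833 shortest genes tested, up to 1855 bases of exon, 29.3% were called higher at >12 M and 9.24% lower, and of the 3833 longest, from 3208 bases, 9.89% were called higher and 24.0% lower. Junb, with 1783 bases, and Fos, with 1589, lie in the shortest class, whose median log2 fold change was 0.16, and Fosb, with 3741, in the longest, at -0.17. Dusp1 (1936 bases), Atf3, Jun and Egr1 lie in the class between, where the median was -0.02. The log2 fold change of Junb, 1.14, stood above the median of its class, but the spread inside the class was not determined. What exon length or the counting added to it was not tested.

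**Figure D4:**
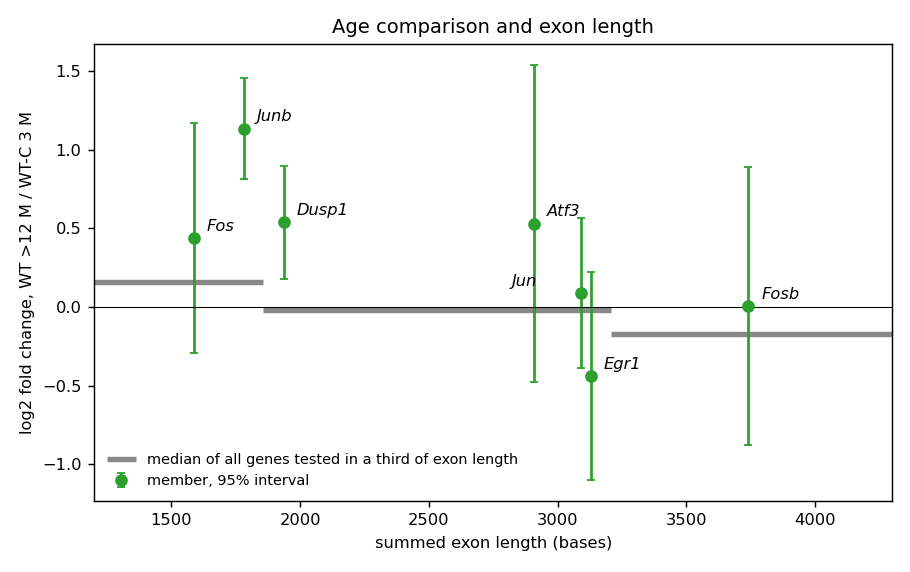
Log2 fold change of WT at >12 M against WT-C at 3 M for the 7 genes (points with 95% intervals) by summed exon length in bases, with the median of all genes tested in each of 3 classes of exon length (grey bars; the outer classes run beyond the axis). Junb lay at 1.14 against a class median of 0.16, and the intervals of all but Junb and Dusp1 crossed 0.

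The genes most like the 7 in their pattern at 3 M were sought by the Pearson r between a gene's log2 CPM and the mean of the 7 genes, each centred, over the 12 libraries. Among 12450 other genes the 2 highest were ENSRNOG00000015434 (chr7:12414733-12424367, Rnor6), with r = 0.861, and ENSRNOG00000002545 (chr10:6841071-6870011, Rnor6), with r = 0.842. Over the 9 libraries without the 3 that stood apart, r was 0.862 and 0.795. The points share libraries and depth with the 7 genes, and r is given as a description. The 7 genes did not move as a block, so their mean need not follow any of them. That mean was highest in TG-C 1 (0.54), a library that stood apart. The 2 genes are also the top of 12450 values of r.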

How the data were processed

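RNA of 15 libraries of the colon MS tissue layer was analysed. For each library the authors deposited a table of raw gene counts. Per the file headers, these are featureCounts 2.0.0 counts over Rnor6 exons (strand setting 2, mapping quality of 3 or more) of read pairs with both ends aligned at >12 M and of single reads at 3 M. Subread, STAR 2.5.4a and bcl2fastq 2.19.1 stand in the submitters' processing notes. The labels name NEBNext poly(A) libraries and the paper's methods QuantSeq 3′ libraries, fastp and mRatBN7.2. With 3′ libraries, counts do not grow with transcript length.

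Tests were run by edgeR 4.0.16 in R 4.3.3 (TMM, robust glmQLFit, glmQLFTest, two-sided), and a gene was tested if any library of the fit had 4 CPM or more. Only the groups compared entered a fit, and p-values were adjusted by Benjamini-Hochberg over all genes tested, with calls at an adjusted p under 0.05. SE is the absolute log2 fold change divided by the root of the F statistic. A prior count of 2 entered the log2 CPM of principal components and SDs. The steps were also run on simulated data with a common dispersion for all genes and no library standing apart, unlike these data. No result here rests on that run. No pair of libraries of a group agreed within sampling noise: the mean chi-square per gene was 24.9 or more.

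Replicate numbers 1, 2 and 3 recur in the groups at 3 M. Deviations from group means correlated between same-numbered libraries of TG-C and TG-Ab (r = 0.797, 0.793 and 0.575). For WT-Ab and TG-Ab these r were 0.592, 0.228 and 0.554, but WT-Ab 2 was closer to TG-Ab 3 (r = 0.475). In TG-C, WT-Ab and TG-Ab, number 1 is also the library that stood apart. In the replicate block the numbers were treated as pairs from the data, not from the design. Same-numbered libraries had r of -0.054, 0.186 and -0.151 between WT-C and WT-Ab, and of -0.051, 0.320 and -0.230 between WT-C and TG-C. WT-C was thus not seen as paired, but the replicate block was also fitted for both comparisons. Alternatives were DESeq2 1.42.0, its size factors, other filters, the replicate block and leaving out each library. Leaving out the 3 libraries that stood apart and the count ratios were added after the data were seen.

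The 7 genes, the lists and the tests were chosen with earlier results of these data known. All 7 are named in every comparison, and the 2 most alike genes by identifier. Lists of other immediate early genes, upstream factors, heat shock genes and cell type markers were not analysed, since the tables used here pair no other identifiers with symbols. The transgene is not reported here.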

Additional observations from a re-analysis of the deposited data

How the results depend on the processing

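No gene of the 7 was called for TG-C against WT-C, TG-Ab against WT-Ab or the interaction under any alternative run. Over all genes at most 0.112%, 0.133% and 0.0248% were called there, each by DESeq2. DESeq2's Wald test called 1 of them in TG rats, 2 in WT rats and 3 over both genotypes (Fos, Jun and Dusp1), where edgeR called 0, 0 and 1; over all genes DESeq2 called 1.69%, 5.09% and 10.4%. Over both genotypes 0 were called without the CPM filter (Dusp1 adjusted p = 0.0523, among more genes tested), 2 with at least 4 CPM in every library (Jun and Dusp1), 3 with the replicate block (Fos, Jun and Dusp1), 2 without the 3 libraries that stood apart (Jun and Dusp1), and 0 to 4 when 1 library was left out (4 without TG-C 1). Over all genes 2.79% were called in that contrast, against 3.59% with at least 4 CPM in every library, 6.58% with the block, 11.2% without the 3 libraries and 14.9% without TG-C 1. For age 1 to 2 were called when 1 library was left out. The replicate block changed no other count of the 7, and moved the calls over all genes from 1 to 20 in TG rats and from 347 to 820 over both genotypes. Numbers were not paired for WT-C in the data. The block was still fitted with WT-C in WT rats, for TG-C against WT-C, over both genotypes and for the interaction. No paired analysis was possible for >12 M because its numbers differ. Of 625 fold changes recomputed, 42 changed sign, all of them of genes not called. Without the 3 libraries Junb was 0.056 in TG rats and 0.066 over both genotypes, Atf3 0.14 over both genotypes, Dusp1 0.25 for TG-Ab against WT-Ab, and Fosb 0.43, Egr1 0.28 and Dusp1 0.20 for the interaction; with the block Atf3 was -0.20 in WT rats. Leaving out 1 library gave signs both ways, as ranges of log2 fold change. For TG-C against WT-C these were -0.054 to 0.35 (Fos), -0.078 to 0.68 (Fosb), -0.38 to 0.64 (Egr1) and -0.0042 to 0.32 (Dusp1). They were -0.28 to 0.75 (Egr1) in TG rats, and -0.31 to 0.11 (Junb) and -0.99 to 0.59 (Atf3) in WT rats. For TG-Ab against WT-Ab they were -0.036 to 0.34 (Junb), -0.85 to 0.58 (Atf3) and -0.32 to 0.11 (Dusp1). For the interaction they were -0.48 to 0.24 (Fosb), -0.26 to 0.16 (Junb), -0.95 to 0.051 (Egr1), -1.16 to 0.42 (Atf3) and -0.43 to 0.0078 (Dusp1), and for age -0.33 to 0.39 (Fosb) and -0.078 to 0.25 (Jun). The cause was not tested. With 27 to 129 counts a library, Fosb had the least depth.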
